A study of Gossypium hirsutum with 18 samples.

Results

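The genes described here are 8 of the 54508 gene models of upland cotton (Gossypium hirsutum) in the expression table, which the study annotated with the response to nematodes. They were chosen by their measured differences between infested and uninfested roots, since the study marked them as induced by the root-knot nematode in the susceptible genotype alone. They are Gohir.A06G159701, Gohir.D06G165500, Gohir.A11G114800, Gohir.A06G146800, Gohir.D01G218500, Gohir.D04G171400, Gohir.D05G385100 and Gohir.D10G083900. The letter after the prefix gives the subgenome of this allotetraploid, A or D, and the next digits its chromosome, so that 3 of the genes lie on the A subgenome and 5 on the D subgenome, on 7 chromosomes in all. The identifiers matched 0 entries of the RefSeq gene table, so the genes are given by identifier, with no protein name and no coordinates.

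The Gene Ontology term that joins these genes, response to nematode, covers any change in a plant's state or activity that follows a nematode stimulus. It was assigned in the study by sequence similarity to annotated proteins, largely of other plants, and a gene may carry it because a homolog changed in level in infected roots as well as because the homolog acts in defense. Root-knot nematodes (Meloidogyne incognita here) enter roots as J2 juveniles, settle in the vascular cylinder and turn a few root cells into giant cells from which they feed, while the surrounding tissue swells into a gall. In a susceptible root the infection therefore changes both the defense state and the cell makeup, and in bulk root RNA a change in the number of cells of a type and a change in RNA per cell cannot be told apart.

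Roots of 3 genotypes were profiled by RNA-seq at an age of 23 days: Acala SJ2, which is susceptible, Wild Mexico Jack Jones (WMJJ), which is moderately resistant, and Acala NemX, which is resistant. Seedlings had received 5000 J2 juveniles of M. incognita per plant at 12 days of age in the groups SJ2_rkn, WMJJ_rkn and NemX_rkn. Those of SJ2_ctl, WMJJ_ctl and NemX_ctl had been mock-inoculated with water and no nematodes. Each of the 6 groups had 3 biological replicate libraries. The genotypes are 3 single lines of different descent, so a difference between them cannot be assigned to a resistance locus, and each group was sampled at 1 age only. The labelled tissue could not be checked against root markers, because the identifiers carried no names.

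The values are the authors' normalized expression values, on a scale close to that of CPM. Their totals over all genes ran from 852215 to 1096547 per library, and were lowest in SJ2_ctl (852215 to 901899) and highest in NemX_ctl (1048424 to 1096547). Between 51290 and 53850 genes were above 0 in a library, and all 8 genes were above 0 in all 18 libraries and passed the filter on low values, as did 46813 of the 54508 genes. The values do not hold read counts. The study lists the reads of each library, and the library with the most genes above 0 in each group was also the one with the most reads in that group. Pseudo-alignment can divide reads between the near-identical A and D copies of a cotton gene, so each level is uncertain to the extent that a copy shares sequence with another.

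The response to nematodes was the basis of the choice and is given as a description. In SJ2, all 8 genes were higher in the 3 infested than in the 3 uninfested libraries with no overlap, by 1.36 to 2.52 on the log2(value + 0.5) scale, with a median of 1.83. The share of all genes without overlap in this direction was not computed. All 8 passed the thresholds used for a call throughout (limma with Benjamini-Hochberg adjustment, adjusted p below 0.01 and a log2 difference beyond 1), as did 8.09% of all genes tested in the same direction. In WMJJ the differences lay between -0.33 and 0.90 (median 0.25) and in NemX between -0.37 and 0.15 (median -0.01). None of the 8 genes was called in either genotype, where the background was 5.6% higher and 4.84% lower in WMJJ and 0.568% higher and 0.666% lower in NemX. In WMJJ the infested libraries lay above the uninfested ones with no overlap for 3 genes, Gohir.D01G218500, Gohir.D04G171400 and Gohir.D10G083900 (background 19.1%). The difference between the responses of SJ2 and a resistant genotype passed the thresholds for 6 of the 8 genes with NemX (background 5.22%) and for 6 with WMJJ (background 3.95%), and nothing is read from these counts because they repeat the choice. The gene nearest above the fold threshold in SJ2 was Gohir.A11G114800, at 1.36, and the gene nearest below it in a resistant genotype was Gohir.D01G218500, at 0.90 in WMJJ. The 95% interval of that WMJJ difference was 0.51 to 1.29 (adjusted p = 0.00129 by limma), so only the fold threshold kept it from a call.

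**Figure D1:**
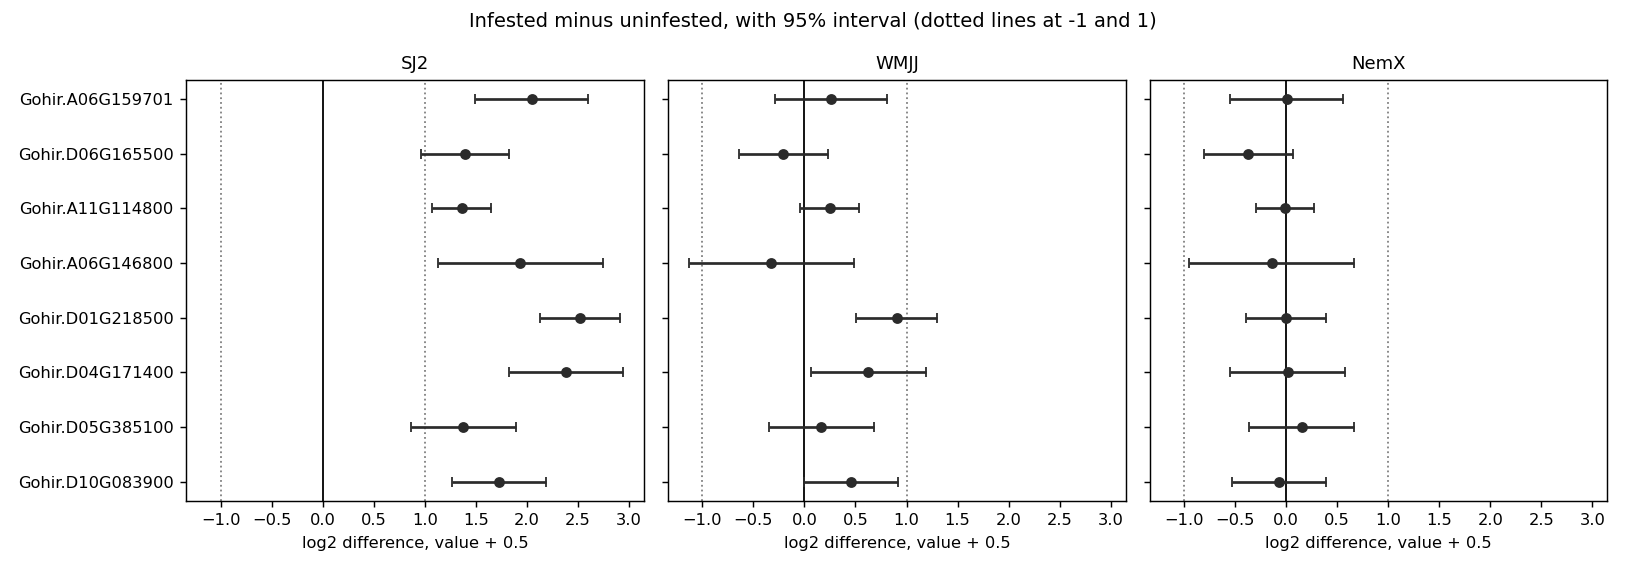
Log2 difference between infested and uninfested roots of each genotype for the 8 genes (points, with 95% interval from limma, 3 libraries in each group). The SJ2 points lie between 1.36 and 2.52, the WMJJ points between -0.33 and 0.90 and the NemX points between -0.37 and 0.15.

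The 8 genes differed in where the resistant genotypes lay relative to SJ2, and each is given below in all 6 groups. For Gohir.A06G159701 and Gohir.D04G171400 infested SJ2 was higher than every other group with no overlap. Infested SJ2 is the group in which the genes were chosen to be high. The share of all genes with that order was not computed, so nothing is read from it. For the other 6 genes at least 1 library of uninfested NemX reached the range of infested SJ2 or lay above it.

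Gohir.D01G218500 had the largest rise in SJ2. Its values were 16.6, 20.4 and 10.4 in SJ2_ctl and 92.8, 91.7 and 85.5 in SJ2_rkn. In uninfested NemX they were 95.8, 85.3 and 83.0, and in infested NemX 72.9, 105.5 and 87.5, so that both NemX groups overlapped infested SJ2. WMJJ lay between, with 32.0, 41.9 and 31.7 without and 66.4, 69.2 and 61.5 with nematodes, above uninfested SJ2 and below infested SJ2 in every library. The group means were 15.8 ± 5.01 in SJ2_ctl, 90.0 ± 3.95 in SJ2_rkn, 35.2 ± 5.81 in WMJJ_ctl, 65.7 ± 3.89 in WMJJ_rkn, 88.0 ± 6.80 in NemX_ctl and 88.6 ± 16.3 in NemX_rkn (SD, n = 3). The WMJJ difference of 0.90 was the largest seen among the 8 genes in a resistant genotype.

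Gohir.A11G114800 was highest in NemX. Uninfested SJ2 gave 98.9, 104 and 112, and infested SJ2 268, 259.9 and 282. NemX gave 308, 347 and 286 uninfested and 312, 283 and 338 infested, so that all 6 NemX libraries lay above the 3 infested SJ2 libraries, the lowest of them by a small margin (282.8 against 282.1). WMJJ gave 156, 183 and 147 uninfested and 206, 204 and 167 infested, between the SJ2 groups and with overlap between treatments. The means were 105 ± 6.397 in SJ2_ctl, 269.9 ± 11.3 in SJ2_rkn, 162 ± 18.9 in WMJJ_ctl, 192 ± 22.3 in WMJJ_rkn, 314 ± 31.2 in NemX_ctl and 311 ± 27.4 in NemX_rkn (SD, n = 3).

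Gohir.D05G385100 was likewise in the range of infested SJ2 in NemX, with a wide spread there. Its values were 5.999, 7.33 and 5.33 in SJ2_ctl and 19.0, 16.3 and 15.4 in SJ2_rkn. Uninfested NemX gave 21.4, 25.0 and 11.8 and infested NemX 15.02, 20.7 and 28.1, overlapping infested SJ2 in both treatments. In WMJJ the values were 10.9, 11.9 and 10.4 uninfested and 10.1, 14.2 and 13.5 infested, with overlap between treatments and every library between the 2 SJ2 groups. The means of NemX_ctl and NemX_rkn, 19.4 ± 6.84 and 21.3 ± 6.57 (SD, n = 3), had the widest relative spread of this gene's groups, and 1 library, NemX_ctl replicate 3 at 11.8, lay within the range of the WMJJ libraries.

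Gohir.D10G083900 was high in both resistant genotypes. Uninfested SJ2 gave 18.7, 17.8 and 12.7 and infested SJ2 48.4, 49.5 and 67.5. Uninfested WMJJ gave 51.9, 49.0 and 50.02, within the range of infested SJ2, and infested WMJJ 66.6, 67.0 and 73.9, above uninfested WMJJ with no overlap. NemX gave 60.8, 67.9 and 117 uninfested and 102, 63.7 and 63.4 infested, with 1 high library in each group. All 12 libraries of the resistant genotypes thus lay above the 3 uninfested SJ2 libraries, whose mean was 16.4 ± 3.24, against 50.3 ± 1.47 in WMJJ_ctl and 81.8 ± 30.4 in NemX_ctl (SD, n = 3).

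Gohir.D06G165500 had its highest single value in infested SJ2 but a similar mean in uninfested NemX. The values were 57.8, 62.1 and 82.5 in SJ2_ctl and 166, 137 and 239 in SJ2_rkn. NemX gave 166, 166 and 199 uninfested and 149.7, 133 and 128 infested, so that the infested NemX libraries lay below the uninfested ones. WMJJ gave 82.9, 106 and 153 uninfested and 88.9, 104 and 94.5 infested, with overlap. The mean was 181 ± 52.9 in SJ2_rkn and 177 ± 18.6 in NemX_ctl (SD, n = 3), and the NemX difference of -0.37 was not called.

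Gohir.A06G159701 and Gohir.D04G171400 peaked in infested SJ2. Gohir.A06G159701 gave 16.3, 29.2 and 23.5 in SJ2_ctl and 97.9, 66.9 and 127 in SJ2_rkn, and the 3 infested SJ2 libraries were the 3 highest of the 18. Its values in WMJJ were 17.5, 32.9 and 36.6 uninfested and 31.2, 38.8 and 30.3 infested. In NemX they were 34.7, 47.1 and 53.3 uninfested and 39.0, 52.7 and 42.8 infested. Neither resistant genotype separated its treatments. Uninfested WMJJ overlapped uninfested SJ2, whereas infested WMJJ and both NemX groups lay above it.

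Gohir.D04G171400 gave 2.37, 3.97 and 1.45 in SJ2_ctl and 14.3, 16.6 and 13.5 in SJ2_rkn, again the 3 highest libraries. WMJJ gave 4.10, 5.82 and 4.96 uninfested and 10.3, 6.49 and 7.21 infested, with no overlap between treatments. NemX gave 10.9, 6.49 and 7.47 uninfested and 7.89, 8.98 and 7.74 infested, which overlapped each other and infested WMJJ. The means were 14.8 ± 1.61 in SJ2_rkn and 8.01 ± 2.04, 8.29 ± 2.33 and 8.20 ± 0.679 in WMJJ_rkn, NemX_ctl and NemX_rkn (SD, n = 3), and these 3 lower groups overlapped each other.

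Gohir.A06G146800 had the widest difference between SJ2 and NemX. Uninfested SJ2 gave 0.856, 2.09 and 0.245 and infested SJ2 5.9997, 2.39 and 7.28, where 1 infested library, replicate 2, came close to the uninfested maximum. WMJJ gave 4.56, 8.74 and 7.43 uninfested and 4.92, 6.58 and 4.42 infested, overlapping infested SJ2. NemX gave 10.7, 15.5 and 13.7 uninfested and 11.3, 14.7 and 10.1 infested, and all 6 NemX libraries lay above the other 12. The means were 1.06 ± 0.939 in SJ2_ctl and 13.3 ± 2.43 in NemX_ctl (SD, n = 3), and at values near 1 the added 0.5 shrinks a fold.

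**Figure D2:**
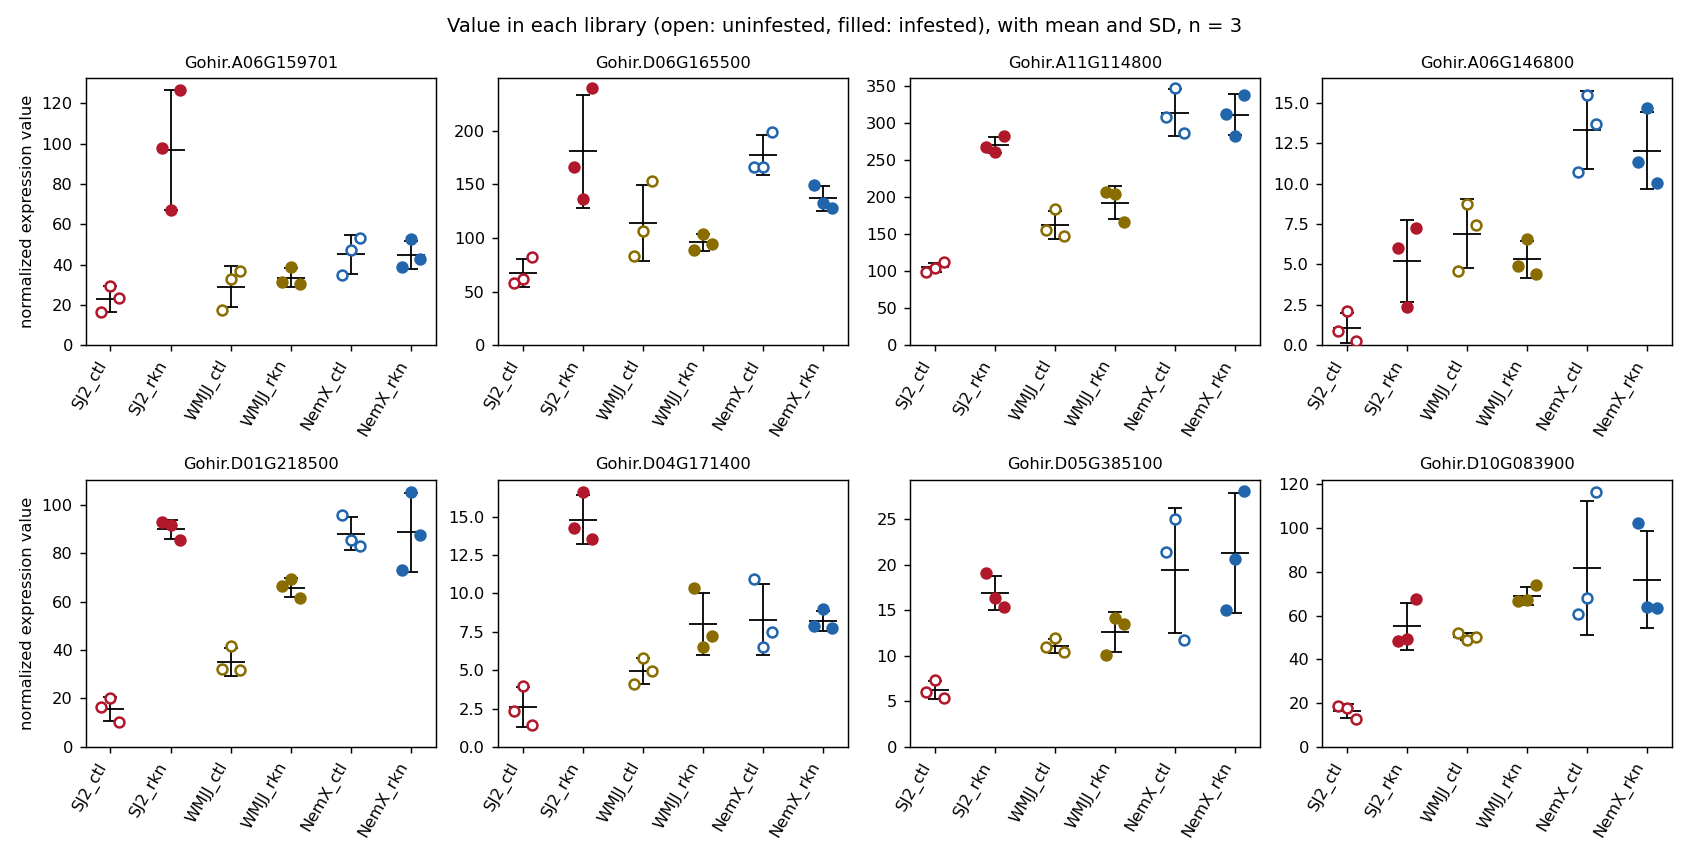
Normalized expression value of each of the 8 genes in all 18 libraries (vertical axes, linear and starting at 0; open points uninfested, filled points infested), with the mean and SD of each group of 3. Uninfested SJ2 has the lowest mean in every panel, and only for Gohir.A06G159701 and Gohir.D04G171400 do the infested SJ2 points stand above all others with no overlap. Both SJ2 groups were part of the choice of the genes, and the share of all genes with infested SJ2 above all others was not computed.

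Uninfested SJ2 had the lowest of the 6 group means for all 8 genes, and 19.3% of all genes tested had their lowest mean in that group. Basal levels followed the order SJ2, WMJJ, NemX in the group means of all 8 genes, against 18.5% of all genes tested, and for 6 of them the 9 uninfested libraries followed that order with no overlap, against 4.5%. The 2 exceptions were Gohir.A06G159701, whose WMJJ libraries overlapped both other groups, and Gohir.D05G385100, whose NemX replicate 3 lay within the WMJJ values. These orders use the uninfested SJ2 libraries, which are also in the contrast that chose the genes, so they are a description and the background shares are not a test of it.

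Uninfested NemX was above uninfested SJ2 with no overlap for 8 of 8 genes (background 19.5%), by 0.97 to 3.31 on the log2 scale with a median of 1.57, and 7 of the 8 differences passed the thresholds (background 9.37%), all but that of Gohir.A06G159701. Uninfested WMJJ was above uninfested SJ2 with no overlap for 7 of 8 genes (background 20%), by 0.30 to 2.38 over the 8 with a median of 0.84, and 3 passed (background 7.76%), namely Gohir.A06G146800, Gohir.D01G218500 and Gohir.D10G083900. Scaling all libraries to equal totals lowered the log2 difference between uninfested NemX and SJ2 by 0.28 in the median gene. It changed the backgrounds from 9.37% higher and 4.11% lower to 7.06% higher and 8.2% lower, and gave a median of 1.29 over the 8 genes, 7 of them past the thresholds. Low values in uninfested SJ2 were part of the choice, so these counts describe the genes and are not a test, and nothing is read from them against the background.

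The basal level can be placed on the change that SJ2 underwent, with 0% at the mean of uninfested and 100% at the mean of infested SJ2 on the log2 scale. Uninfested NemX lay at 47.5% for Gohir.A06G159701, 65.3% for Gohir.D04G171400, 98.7% for Gohir.D01G218500 and 100.4% for Gohir.D06G165500. It lay further beyond the infested SJ2 mean for the other 4, at 109.5% for Gohir.D05G385100, 116% for Gohir.A11G114800, 130.2% for Gohir.D10G083900 and 171% for Gohir.A06G146800. Uninfested WMJJ lay lower for every gene, from 14.7% for Gohir.A06G159701 to 93.4% for Gohir.D10G083900 and 123% for Gohir.A06G146800. The medians over the 8 genes were 105% for uninfested NemX and 49.1% for uninfested WMJJ. Both ends of this scale come from the libraries that chose the genes.

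**Figure D3:**
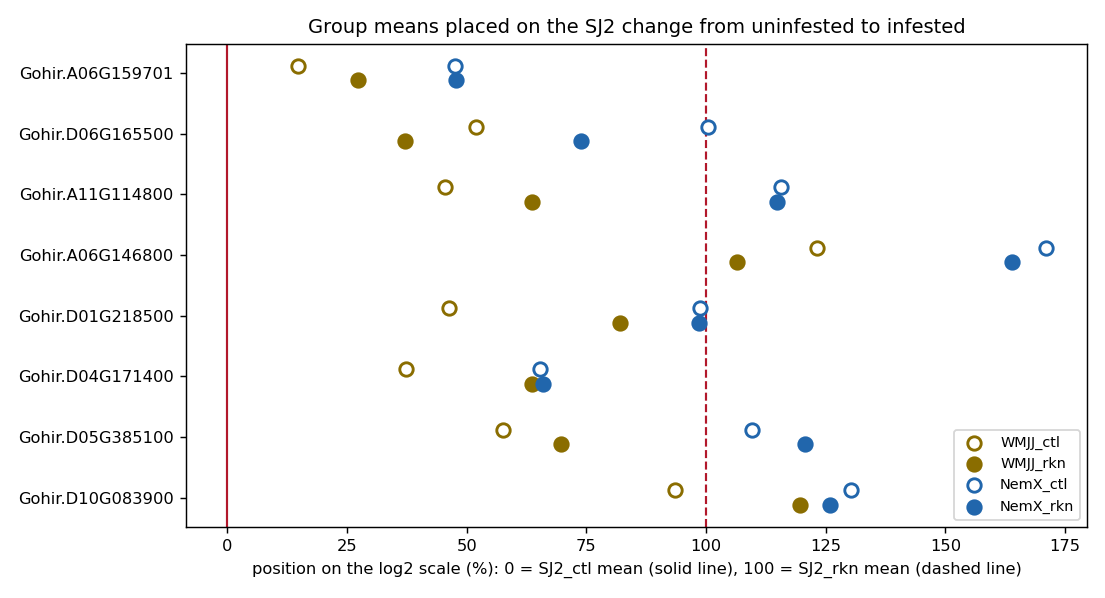
Position of the WMJJ and NemX group means on the log2 change from uninfested SJ2 (0%, solid line) to infested SJ2 (100%, dashed line), for each of the 8 genes (open points uninfested, filled points infested). Uninfested NemX spans 47.5% to 171% and uninfested WMJJ 14.7% to 123%, with NemX to the right of WMJJ for every gene.

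Set directly beside infested SJ2, uninfested NemX differed by -1.07 (95% interval -1.63 to -0.52) for Gohir.A06G159701 and -0.83 (-1.39 to -0.27) for Gohir.D04G171400, with no overlap of libraries in either case. It was higher by 1.38 (0.57 to 2.18) for Gohir.A06G146800, with no overlap. For Gohir.D01G218500 and Gohir.D06G165500 the differences were -0.03 (-0.43 to 0.36) and 0.01 (-0.43 to 0.44), intervals that still allow a difference of 0.36 or more in either direction. The other 3 differences were 0.13 for Gohir.D05G385100, 0.21 for Gohir.A11G114800 and 0.52 for Gohir.D10G083900. In all, 2 genes were higher with no overlap (background 21.6%) and 2 lower (background 18.6%), and nothing is read from these counts. Only Gohir.A06G159701 was called (adjusted p = 0.00428 by limma), as were 2338 of the 46813 genes tested in the same direction. Gohir.A06G146800 (adjusted p = 0.011) and Gohir.D04G171400 (adjusted p = 0.0259) did not pass. Infested SJ2 is the group in which the genes were chosen to be high, so these differences and intervals are a description.

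Among infested roots, Gohir.A06G159701 was the only one of the 8 called between SJ2 and a resistant genotype. It was lower than in infested SJ2 by a log2 difference of -1.49 in WMJJ (background of lower calls 2.87%) and -1.07 in NemX (background 1.81%). Infested SJ2 lay above infested WMJJ with no overlap for 6 genes (background 13.9%), the exceptions being Gohir.A06G146800 and Gohir.D10G083900. Infested SJ2 is the group in which the genes were chosen to be high, so these differences are given as values only.

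The mean of a genotype over its uninfested and infested libraries does not contain the difference that chose the genes. Genotypes were compared on it, with 6 libraries of each. The SJ2 libraries still took part in the choice, and their mean is free of it only where both SJ2 groups vary equally. For Gohir.D01G218500 the SD of the log2 values was 0.477 in SJ2_ctl and 0.064 in SJ2_rkn. For Gohir.D06G165500 it was 0.270 and 0.410. The adjusted p values against SJ2 and the counts of calls are therefore not fully free of the choice. Where SJ2_ctl varied more, as for Gohir.D01G218500, a choice for a large rise can lower the SJ2 mean and favour a higher call in NemX. Where SJ2_rkn varied more, as for Gohir.D06G165500, it can raise that mean. The background shares are given for scale and are not a test of the counts. The test was limma across all 46813 genes with Benjamini-Hochberg adjustment. On this measure NemX was above SJ2 for 7 of the 8 genes, and 3 were called higher (background 6.34%). Gohir.A06G146800 was higher by 2.27 ± 0.27 (log2 difference ± SE, adjusted p = 1.73e-06 by limma), a 4.83-fold difference. Gohir.D10G083900 was 2.54-fold higher (1.35 ± 0.16, adjusted p = 1.03e-06) and Gohir.D01G218500 2.34-fold higher (1.23 ± 0.13, adjusted p = 4.28e-07). By adjusted p alone, 5 genes passed (background 11.7%), the additional ones being Gohir.D05G385100 at 1.86-fold (adjusted p = 0.000455) and Gohir.A11G114800 at 1.85-fold (adjusted p = 4.86e-07). With equal totals the 3 calls stayed, at 2.13, 1.17 and 1.05 for Gohir.A06G146800, Gohir.D10G083900 and Gohir.D01G218500.

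The other 3 genes did not pass. Gohir.D06G165500 had a difference of 0.52 (adjusted p = 0.0117 by limma), which was near the limit on the adjusted p. It came to 0.00334 with the replicate number as a block, 0.00555 without SJ2_ctl replicate 3 and 0.00181 without SJ2_rkn replicate 3, and to 0.206 with quantile normalization. Gohir.D04G171400 had a difference of 0.37 (adjusted p = 0.166) and Gohir.A06G159701 of -0.05, with a 95% interval from -0.44 to 0.34 (adjusted p = 0.888). For Gohir.A06G159701, the sign depended on single libraries, from -0.17 to 0.06 when each was left out. The median over the 8 genes was 0.89, and over all genes tested -0.02.

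WMJJ differed less from SJ2 on the same measure. Gohir.A06G146800 was the 1 gene called higher (1.25 ± 0.27, adjusted p = 0.00143 by limma, background 5.08%), and by adjusted p alone Gohir.D10G083900 passed as well (0.98 ± 0.16, adjusted p = 6.17e-05, background 10.2%). Gohir.D10G083900 passed the fold threshold as well, at 1.01 to 1.05, without SJ2_ctl replicate 1, SJ2_ctl replicate 2 or SJ2_rkn replicate 3, which made 2 calls. Gohir.A06G159701 had a difference of -0.59 (adjusted p = 0.0208) and Gohir.D01G218500 of 0.36 (adjusted p = 0.0482), neither past the threshold. For Gohir.A06G159701 the adjusted p fell below 0.01 with equal totals (0.00747), with the replicate number as a block (0.00651), without SJ2_ctl replicate 1 (0.00868) and without SJ2_rkn replicate 2 (0.00717), and rose to 0.0692 without WMJJ_ctl replicate 1. The remaining 4 lay between -0.08 and 0.19, and the median of the 8 was 0.13.

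**Figure D4:**
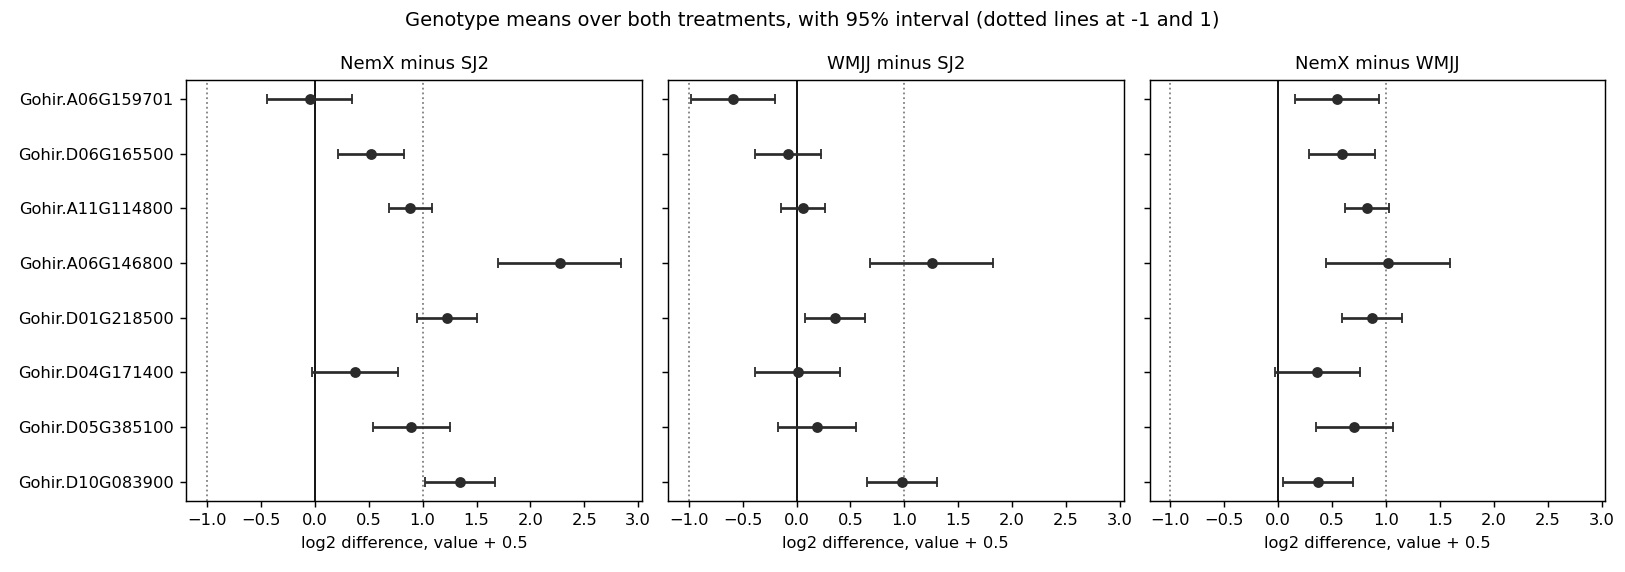
Differences between genotype means over both treatments for the 8 genes (points, log2 of value + 0.5, with 95% interval from limma, 6 libraries of each genotype; dotted lines at -1 and 1). NemX minus SJ2 runs from -0.05 to 2.27, WMJJ minus SJ2 from -0.59 to 1.25, and NemX minus WMJJ from 0.36 to 1.02.

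NemX and WMJJ can be compared with no SJ2 library in the contrast, which keeps the rise in SJ2 out of it. The lack of induction in WMJJ and NemX was also part of the choice, so their libraries took part in it. Over both treatments all 8 genes had a positive difference between NemX and WMJJ, from 0.36 to 1.02, with a median of 0.65 against 0.00 over all genes tested. Gohir.A06G146800 was the 1 gene called (1.02 ± 0.27, adjusted p = 0.00845 by limma, background 4.41%). It lay just past both thresholds, and the call was lost when any of 10 of the 12 libraries was left out, with an adjusted p of up to 0.0275. It stayed only without WMJJ_ctl replicate 2 or WMJJ_rkn replicate 2. With equal totals it was lost too (0.92, adjusted p = 0.0175).

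By adjusted p alone, 5 genes passed between NemX and WMJJ (background 10.4%). Besides Gohir.A06G146800 they were Gohir.D01G218500 (0.87, adjusted p = 4.89e-05 by limma), Gohir.A11G114800 (0.82, adjusted p = 1.9e-06), Gohir.D05G385100 (0.71, adjusted p = 0.0043) and Gohir.D06G165500 (0.59, adjusted p = 0.00471). The last 2 did not pass with equal totals (adjusted p = 0.0151 and 0.0114). Nor did Gohir.D05G385100 without WMJJ_ctl replicate 3, WMJJ_rkn replicate 1, NemX_ctl replicate 1 or 2, or NemX_rkn replicate 3 (adjusted p up to 0.0173). Gohir.D06G165500 did not pass without WMJJ_ctl replicate 1 or 2, WMJJ_rkn replicate 1 or 3, NemX_ctl replicate 3 or NemX_rkn replicate 1 (adjusted p up to 0.0171). Gohir.A06G159701 (0.54, adjusted p = 0.0365), Gohir.D10G083900 (0.37, adjusted p = 0.0875) and Gohir.D04G171400 (0.36, adjusted p = 0.174) did not. All 6 NemX libraries lay above all 6 WMJJ libraries for Gohir.A11G114800, Gohir.A06G146800 and Gohir.D01G218500, an order that 5.27% of all genes tested showed.

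Differences within a treatment use libraries whose responses in WMJJ and NemX were part of the choice, so they are not free of it. In uninfested roots the differences between NemX and WMJJ lay between 0.63 and 1.32 (median 0.69), and 6 genes did not overlap (background 17.7%). Gohir.D01G218500 was called (1.32 ± 0.19, adjusted p = 4.2e-05 by limma, background 3.74%), and Gohir.A11G114800 passed by adjusted p alone (0.95, adjusted p = 4.82e-05, background 5.45%). The number called was 2 without WMJJ_ctl replicate 2 and 3 without NemX_ctl replicate 3. In infested roots they lay between 0.06 and 1.11 (median 0.46), and 6 genes again did not overlap (background 18.2%). Among infested libraries limma called 0 of the 8 (background 4.96%). Gohir.A11G114800 passed by adjusted p alone (0.69, adjusted p = 0.00103 by limma, background 7.1%), though not when the compared libraries were fitted alone (adjusted p = 0.0107). The genes without overlap were not the same in both treatments: Gohir.A06G159701 and Gohir.D05G385100 overlapped in uninfested roots, and Gohir.D04G171400 and Gohir.D10G083900 in infested roots.

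The 8 genes moved together across groups and less so within them. Pearson's r of the log2 values over the 18 libraries was positive for all 28 pairs, between 0.45 and 0.92 (median 0.75). All 8 had been chosen for a rise in SJ2, which these values include. With the mean of each group taken out, r lay between -0.64 and 0.76 (median 0.12), and 4 pairs were above 0.5. These were Gohir.D01G218500 with Gohir.D04G171400 (0.76), Gohir.A06G159701 with Gohir.D06G165500 (0.72) and with Gohir.A06G146800 (0.70), and Gohir.A06G146800 with Gohir.D01G218500 (0.61). The lowest was that of Gohir.D05G385100 with Gohir.D10G083900 (-0.64), which were high in different NemX libraries. The values of a library share its normalization, and these correlations are a description over 18 libraries.

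**Figure D5:**
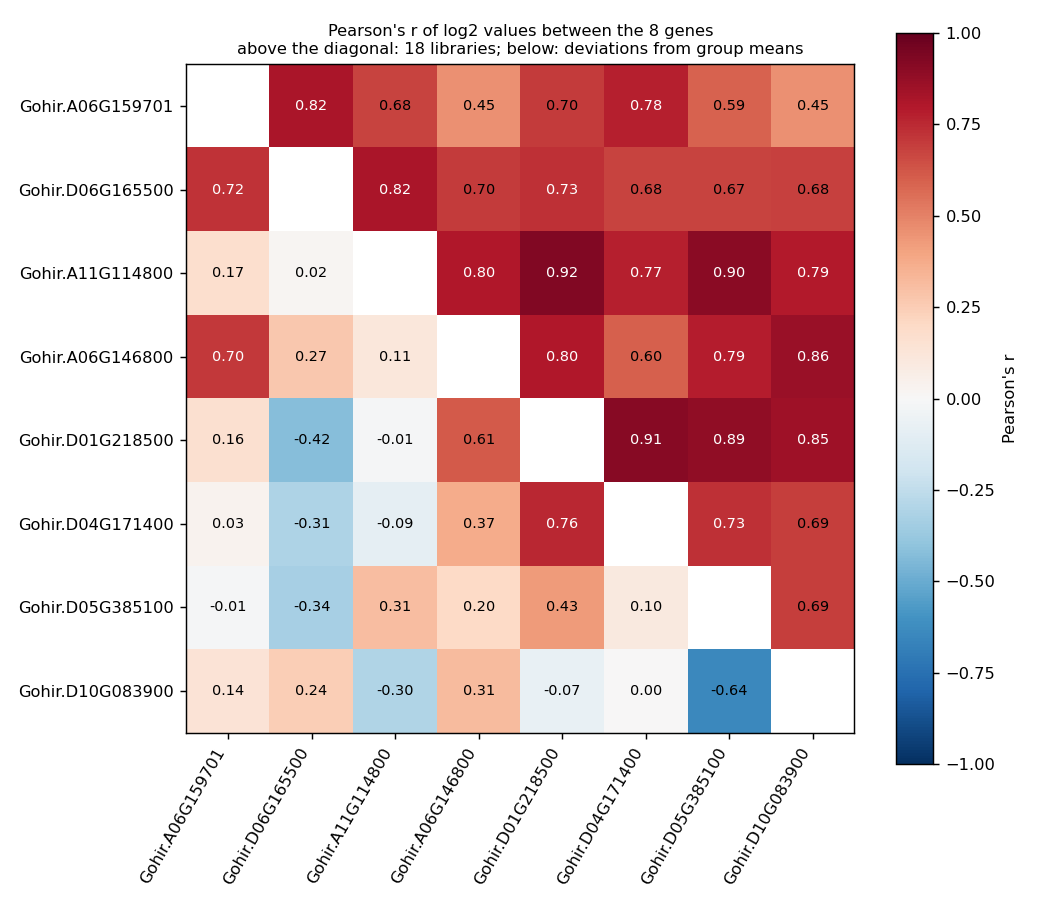
Pearson's r between the log2 values of the 8 genes over all 18 libraries (above the diagonal) and over the deviations of the libraries from their group means (below the diagonal). The upper values run from 0.45 to 0.92 and the lower ones from -0.64 to 0.76.

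For some of the genes the within-group deviations went with a property of the libraries. In each group 1 library had the most genes above 0 (SJ2_ctl, SJ2_rkn, WMJJ_ctl, WMJJ_rkn and NemX_ctl replicate 3, and NemX_rkn replicate 1), which was also the most deeply sequenced of its group by the read numbers in the study. The deviations of these 6 from their group means over all genes were correlated for all 15 pairs, with r from 0.19 to 0.44. In them Gohir.D06G165500 lay 0.25 above its group mean on average and was the highest of its group in 5 of 6. Gohir.D10G083900 lay 0.18 above on average and was highest in 4 of 6. The mean deviations of Gohir.D05G385100 and Gohir.D01G218500 were -0.23 and -0.20, and Gohir.D01G218500 was below its group mean in all 6. Gohir.D04G171400 was at -0.16 and Gohir.A06G159701 at 0.14, while Gohir.A11G114800 and Gohir.A06G146800, at -0.05 and -0.07, were above their group mean in 3 of 6 each. The methods also state that 1 in 3 samples was prepared with another kit, for stranded mRNA, without naming them. They describe runs on MiSeq and on HiSeq instruments, again without naming the libraries. The part of sequencing depth, of the kit and of the instrument in these deviations was not tested. With a term for these libraries, chosen after seeing the data, the 3 calls between the NemX and SJ2 means stayed.

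For each gene, the genes with the most similar pattern over the 18 libraries were sought among 46805 others. The highest r was 0.92 for Gohir.A06G159701 (with Gohir.D12G228800), 0.93 for Gohir.D06G165500 (Gohir.A06G177000), 0.98 for Gohir.A11G114800 (Gohir.A06G010600) and 0.97 for Gohir.A06G146800 (Gohir.D09G227700). It was 0.98 for Gohir.D01G218500 (Gohir.D12G196400), 0.95 for Gohir.D04G171400 (Gohir.D10G073800), 0.95 for Gohir.D05G385100 (Gohir.A01G007600) and 0.97 for Gohir.D10G083900 (Gohir.A05G046700). These patterns differed in how common they were, since 366 genes had an r above 0.9 with Gohir.D01G218500, 231 with Gohir.A06G146800 and 203 with Gohir.A11G114800, but 10 with Gohir.D06G165500 and 2 with Gohir.A06G159701.

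The likeness held within groups for some of these pairs and not for others. With group means removed, r was 0.95 for Gohir.D05G385100 with Gohir.A01G007600 and 0.90 for Gohir.D06G165500 with Gohir.A06G177000, but 0.32 for Gohir.A11G114800 with Gohir.A06G010600. As an example of a shared group pattern, Gohir.D10G073800 had means of 30.2 in SJ2_ctl, 261 in SJ2_rkn, 49.9 in WMJJ_ctl, 133 in WMJJ_rkn, 111 in NemX_ctl and 139.7 in NemX_rkn, the peak in infested SJ2 that Gohir.D04G171400 showed.

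The genes were also set beside their neighbours by identifier number, 5 on each side, an order taken from the identifiers and not checked against a map. Of the 80 neighbours 73 passed the filter, and 6 were called higher (background 6.34%) and 1 lower (2.48%) in the mean of NemX against SJ2. In the response of SJ2 to nematodes, 3 neighbours were called higher (8.09%) and 2 lower (5.92%). Gohir.D01G217800, the identifier 5 places below Gohir.D01G218500, had a difference of 1.84 between the NemX and SJ2 means (adjusted p = 3.26e-08 by limma), a response of 3.02 in SJ2 and an r of 0.95 with Gohir.D01G218500 over the 18 libraries. Gohir.D06G165200, near Gohir.D06G165500, and Gohir.A06G147000, near Gohir.A06G146800, were called higher in NemX at 1.09 and 1.11. The 3 remaining higher calls lay near Gohir.A06G159701, which itself had a difference of -0.05.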

How the data were processed

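Total RNA was extracted from cotton roots, and 18 cDNA libraries in 6 groups were made from it with TruSeq RNA kits and sequenced. A part of the libraries was made with a stranded mRNA kit. The authors trimmed the reads, pseudo-aligned them to the transcripts of the Gossypium hirsutum TM-1 genome, summarised them per gene and normalized them. The tools named in the submitters' processing notes are FastQC 0.11.9, Trimmomatic 0.39, kallisto 0.46.1 and edgeR 3.13. The deposited table holds normalized expression values, a signal per gene and library, and how they were normalized is not given in the sources used here. Whole reads could not be recovered, so no count test was run. 0 value columns were left without a sample.

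Genes whose mean value over the libraries was below 1 were left out (7695, with 46813 tested), 0.5 was added, and log2 values were fitted in limma 3.58.1 (R 4.3.3) with 1 coefficient per group, an intensity trend and Benjamini-Hochberg adjustment within each comparison. A call needed an adjusted p below 0.01 and a log2 difference beyond 1. Intervals are at 95%. The labels give replicate numbers without stating shared material, so the main fit used no block. The fit was tested on simulated data. Alternatives changed the pseudocount, filter, scaling, trend, thresholds and libraries. The genes, tests and lists were chosen with earlier results of these data known. Genes were named when they were among the 8, when they had 1 of the 2 highest correlations with one of these, or when they were neighbours called in the direction of their gene. The number of plants per library is stated differently in the labels and in the methods.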

Additional observations from a re-analysis of the deposited data

Results flagged for a closer look

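The response to nematodes differed between genotypes by the interaction term of limma for several of the 8 genes, which were chosen for this difference, so the values describe the choice. Between SJ2 and NemX the response differed by 2.04 for Gohir.A06G159701, 1.76 for Gohir.D06G165500, 1.37 for Gohir.A11G114800, 2.52 for Gohir.D01G218500, 2.37 for Gohir.D04G171400 and 1.80 for Gohir.D10G083900 on the log2 scale, each higher in SJ2 (background of such calls 5.22%). Between SJ2 and WMJJ it differed by 1.79 for Gohir.A06G159701, 1.6 for Gohir.D06G165500, 1.11 for Gohir.A11G114800, 2.26 for Gohir.A06G146800, 1.62 for Gohir.D01G218500 and 1.76 for Gohir.D04G171400 (background 3.95%). With 3 libraries in each group, the rule used here for a single deviating library was not applied.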

How the results depend on the processing

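The number of the 8 genes called was recomputed under each alternative. For the NemX and SJ2 means it was 3, 5 with no fold threshold, and 3 to 4 with single libraries left out. For the WMJJ and SJ2 means it was 1, 2 with no fold threshold, and 1 to 2 with single libraries left out. For the NemX and WMJJ means it was 1, 5 with no fold threshold, 0 with a pseudocount of 0.1 or 1, equal totals, quantile normalization or no trend, and 0 to 1 with single libraries left out. In uninfested roots NemX against WMJJ gave 1, 2 with no fold threshold, and 1 to 3 with single libraries left out. In infested roots it gave 0, and 1 with an adjusted p below 0.05, with no fold threshold or with the compared libraries alone. Uninfested NemX against SJ2 gave 7, and 5 with quantile normalization. Uninfested WMJJ against SJ2 gave 3, and 2 to 4 with single libraries left out. The median response with single libraries left out was 1.55 to 2.04 in SJ2, 0.18 to 0.36 in WMJJ and -0.10 to 0.01 in NemX. With equal totals the median response in SJ2 was 1.69, and 8 genes were called higher (background 6.55%). Quantile normalization left 7 of the 8 called in SJ2 (background 7.93%).

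Signs turned only for differences near 0. Between the WMJJ and SJ2 means, Gohir.A11G114800 was at -0.012 with equal totals and -0.0926 with quantile normalization, Gohir.D04G171400 at -0.0251 with a pseudocount of 1 and -0.0518 with equal totals (-0.14 to 0.16 with single libraries left out), and Gohir.D06G165500 at -0.19 to 0.0345. Between the NemX and SJ2 means Gohir.A06G159701 ran from -0.17 to 0.0578. Between infested NemX and WMJJ, Gohir.D04G171400 was at -0.0094 with equal totals and ran from -0.0728 to 0.24, and Gohir.D10G083900 from -0.12 to 0.22. The causes were not tested.

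With the replicate number as a block, the calls stayed at 3 between the NemX and SJ2 means, 1 between WMJJ and SJ2 and 1 between NemX and WMJJ. By adjusted p alone the block added Gohir.D06G165500 between NemX and SJ2 (0.00334) and Gohir.A06G159701, lower, between WMJJ and SJ2 (0.00651). Of the 45 pairs of libraries with the same number in different groups, 20 had correlated deviations above 0.1 (median r 0.09). The libraries with the most genes above 0 exceeded 0.1 in all 15 of their pairs, some of which share a number. Other pairs of different groups did so in 23 of 120 (median r -0.04). The labels do not state that the number marks pairing, and whether it does was not tested. A term for the 6 libraries that had the most genes above 0 in their groups, chosen after seeing the data, gave the same 3, 1 and 1, and these libraries were also those with the most reads of their groups. The values hold no read counts, so no counting interval or limit of detection is given.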
